A study of Mus musculus with 9 samples.

Results

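Genes of DNA replication and of mitosis were examined in renal vesicles, the first epithelial stage of the nephron, captured by laser from mouse kidneys at E12.5. The list held 34 genes, 16 of replication and 18 of mitosis, and a gene was measured where a probe set carried its symbol alone in the platform annotation. Of the 34, 33 had such probe sets, 76 in all, out of 18193 genes so named on the array. Ccnb1 had none in the annotation used here and has no value. For each gene, the brightest probe set on average over the 9 arrays stands for it, and 16 replication genes and 17 mitotic genes were measured in this way.

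The groups were 5 arrays of wild-type vesicles and 4 arrays of Lim1 mutant vesicles, each from a biologically independent sample of about 30 to 50 vesicles. Lim1, now named Lhx1, is a homeobox gene whose product regulates transcription in the forming nephron. The labels name neither the mutant allele nor the strain, and do not say from how many embryos each sample came. At 1 Lhx1 probe set the mutant arrays read 6.88 to 10.5 and the wild-type arrays 2327 to 17587, while at its other probe set the mutants read 4108 to 4951, inside the wild-type range of 1696 to 18555. Which of the 2 lies in the altered part of the gene is not known here. Of 12 renal vesicle markers, 11 had a probe set with their symbol alone, and all 11 were tested at the brightest. Differences were above 0 for 4 and below for 7, Lhx1 included, with a median of -0.51. At these probe sets none of the 11 passed the test (adjusted p of at least 0.696, limma), and no marker was at 0 on any array. The Lhx1 probe set that read 6.88 to 10.5 in the mutants is not among these, and it did pass (adjusted p = 0.00329, limma). In captured tissue, fewer cycling cells and less RNA per cycling cell cannot be told apart.

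Cells copy their DNA once per cycle and then divide the copies. In G1, ORC, Cdc6 and Cdt1 load the MCM2-7 helicase onto origins, cyclin E with Cdk2 helps start S phase, and the helicase then unwinds DNA while PCNA, loaded by replication factor C, holds the polymerases. Cyclin A and cyclin B with Cdk1, the Aurora and Polo kinases and the anaphase promoting complex then drive mitosis. Replication genes are classically transcribed through E2F factors in late G1, and mitotic genes through the MuvB complex with B-Myb and FoxM1 in G2. In the early nephron, the renal vesicle grows by division soon after the mesenchyme turns epithelial.

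Promoter sequences of the members show these 2 classes of control letters, and 4 were chosen because they carry them or belong to genes described in detail. Each is the 150 bases before the start site, read 5′ to 3′ along the gene, from RefSeq on GRCm38.p6. Capitals mark matches on either strand to the E2F letters TTTCCCGC or TTTGGCGC, to the CHR letters TTTGAA, the cell cycle genes homology region, and to CCAAT. Mcm6 lies at chr1:128359706-128359855 on the minus strand, Cdk1 at chr10:69352913-69353062 on the minus strand, Ube2c at chr2:164769779-164769928 on the plus strand and Rrm2 at chr12:24708104-24708253 on the plus strand.
Mcm6: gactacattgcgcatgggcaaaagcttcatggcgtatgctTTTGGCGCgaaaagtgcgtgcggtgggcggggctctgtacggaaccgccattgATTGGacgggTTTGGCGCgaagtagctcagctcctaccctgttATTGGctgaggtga
Cdk1: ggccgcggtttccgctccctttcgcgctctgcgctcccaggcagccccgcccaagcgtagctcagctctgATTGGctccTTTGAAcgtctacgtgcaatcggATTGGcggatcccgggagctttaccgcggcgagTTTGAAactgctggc
Ube2c: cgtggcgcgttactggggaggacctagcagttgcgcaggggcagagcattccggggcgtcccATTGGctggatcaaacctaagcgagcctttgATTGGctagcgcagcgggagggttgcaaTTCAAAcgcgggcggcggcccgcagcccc
Rrm2: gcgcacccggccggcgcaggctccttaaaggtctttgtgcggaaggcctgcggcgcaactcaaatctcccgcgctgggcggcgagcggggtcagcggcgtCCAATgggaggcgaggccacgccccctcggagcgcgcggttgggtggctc

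Over the 250 bases before the start site, promoters of 13 replication members and 15 mitotic members, Ccnb1 included, were in the RefSeq table. The E2F letters stood in 4 replication promoters (Cdc6, Mcm5, Mcm6 and Mcm7) and in 0 of the 15 mitotic promoters, and in 1.30% of all 32851 promoters. The CHR letters stood in 6 mitotic promoters (Ccnb2, Cdc20, Cdk1, Mki67, Top2a and Ube2c), in 1 replication promoter (Mcm2) and in 16.0% of all promoters. CCAAT stood in 14 of 15 mitotic and 8 of 13 replication promoters, against 33.8% of all. A member counted where any of its listed promoters matched, while the shares over all counted each promoter once, so the 2 are not strictly alike. Only the 2 E2F spellings given above were searched. The printed Cdk1 promoter holds the close spelling TTTCGCGC, which was neither marked nor counted, so the E2F counts depend on the spellings chosen. A match describes letters only, and the lack of one says nothing about a factor.

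No member of either class passed the test between mutant and wild type. Of 27022 probe sets tested in all, 9 passed an adjusted p of 0.05 (limma with Benjamini-Hochberg adjustment), which is 0.0333% of them. None of the 70 tested probe sets of the members was among them, and 8 of these 70 had an unadjusted p under 0.05. At the representing probe sets the adjusted p ranged from 0.651 to 0.998 over the 16 replication genes and was at least 0.737 over the 17 mitotic genes. Before adjustment, 4 of the 33 members had a p under 0.05, 3 higher and 1 lower in the mutants, or 12.1%. Over all probe sets this share was 6.67%, made of 3.8% higher and 2.87% lower. Over all 13226 genes tested, each at its brightest probe set as for the members, it was 7.73%. In a simulation of 9 such arrays, probe sets were drawn at random from all those tested and given a change. The test found 2 of 50 given a log2 change of 1 and 13 of 50 given a change of 2. These rates belong to the array as a whole, and most members had smaller errors, as given below. A missed call still does not by itself show that a gene was level.

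The differences of the members had smaller errors than those of most genes. The median standard error of the difference was 0.21 for replication genes and 0.26 for mitotic genes, against 0.45 over all 13226 genes tested. The genes compared were not matched to the members in signal, and the dim members Tyms and Ccne2 had errors of 0.85 and 0.50. For 27 of the 33 members the 95% interval of the difference lay wholly within 1 log2 unit of 0, that is within a change of 2-fold, and 23.1% of all genes tested had so narrow an interval. The 6 members with wider intervals were Tyms, Ccne2, Aurka, Aurkb, Cenpe and Tpx2.

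**Figure D1:**
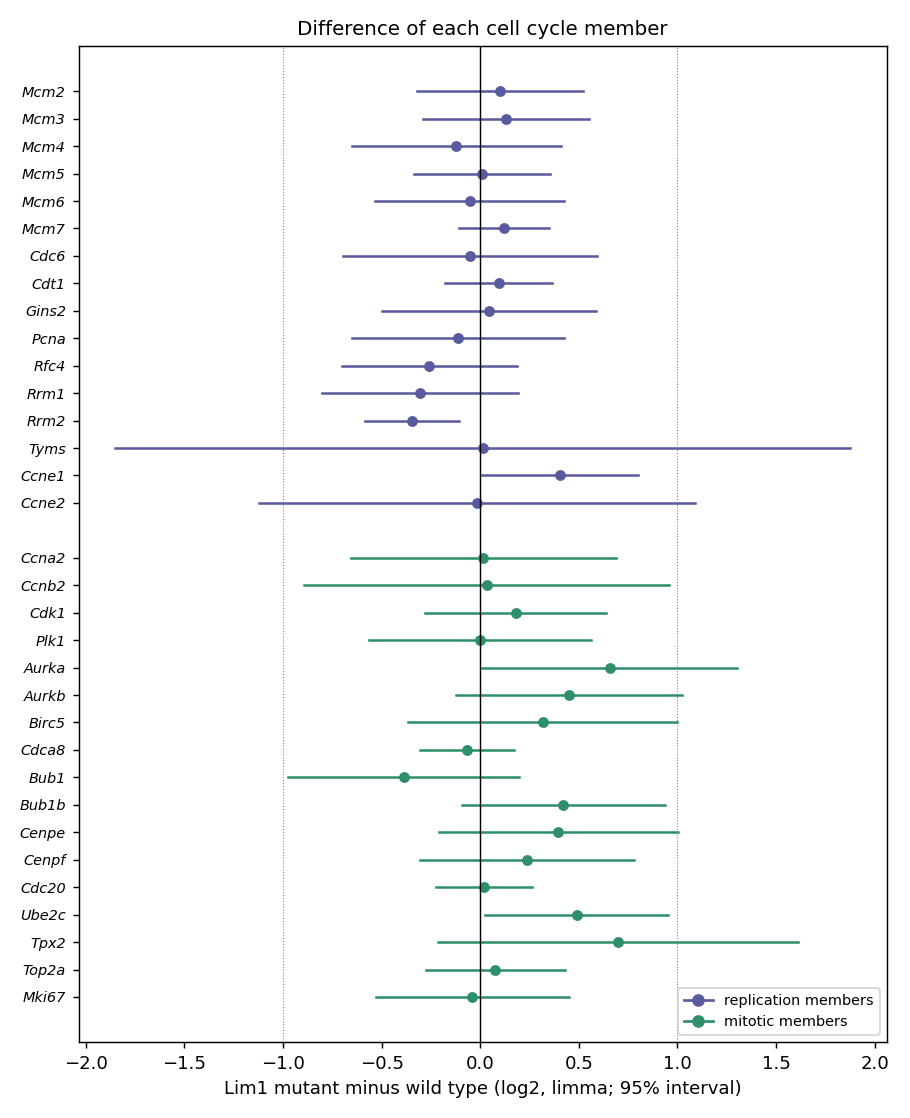
Mutant minus wild-type difference of each of the 33 measured members (log2, x axis) as a point with its 95% limma interval, replication genes above and mitotic genes below. Dotted lines mark a change of 2-fold, and most intervals lie between them, with those of Tyms and Ccne2 the widest among the replication genes.

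Of 16 replication genes, 8 had differences above 0 and 8 below, with a median of -0.00, where all 13226 genes had a median of 0.07. The mitotic genes leaned upward, with 14 of 17 above 0 and a median of 0.18. By comparison, 56.5% of all genes lay above 0. That lean changed with the arrays, weights and scaling used, and its cause was not tested. Without wild-type array 3, 9 of 17 mitotic genes were above 0, and their median was 0.0350 where that of all genes was 0.08. The replication genes stayed at 8 and 8 with a median of 0.01. With array weights, 11 mitotic genes were above 0 and 6 below, with a median of 0.07, as for all genes. With the arrays centred on their medians in place of quantile normalisation, the mitotic genes were at 9 above and 8 below. Their median was then 0.0852, and that of all genes 0.01. The replication genes were at 4 above and 12 below with a median of -0.0782.

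The helicase subunits had differences near 0. MCM2 to MCM7 form 1 ring, and the differences of their 6 genes ran from -0.12 for Mcm4 to 0.13 for Mcm3, none with an adjusted p below 0.88. Mcm2 read 20976, 19459, 16589, 12029 and 17397 on wild-type arrays 1 to 5 and 17898, 17815, 16214 and 21374 on mutant arrays 1 to 4. The mutant signals fell inside the wild-type range except for mutant array 4, just above it, and the difference was 0.10 ± 0.19 (SE; adjusted p = 0.951, limma). Mcm3 read 11954, 17922, 15148, 11734 and 14490 in the wild type and 15519, 14727, 18382 and 13482 in the mutants, a difference of 0.13 ± 0.19. Its groups overlapped over most of their range.

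Mcm7 read 79174, 43671, 82463, 76592 and 68735 in the wild type and 51791, 89426, 86276 and 76881 in the mutants. Its difference was 0.12 ± 0.10, with a 95% interval of -0.11 to 0.35, among the narrowest of the members. Arrays wild-type 2 and mutant 1 had the lowest deposited signals of Mcm7, and quantile normalisation drew them toward the rest. Mcm4, Mcm5 and Mcm6 had differences of -0.12, 0.01 and -0.05. A second Mcm4 probe set read 0.14 and a dim one of Mcm3 -0.08, each opposite in sign to the probe set used. The second Mcm6 probe set read -0.13. Larger differences stood at the second Mcm2 probe set, -0.70 ± 0.31, and at the dimmest of 3 for Mcm5, -1.68 ± 0.72 (adjusted p = 0.748 and 0.737, limma). Since the 2 probe sets of Mcm2 point in opposite directions, no direction can be given for that gene.

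Origin licensing and fork genes also stood near 0 or overlapped between the groups. Cdc6, the loader of the helicase, had signals of 3806 ± 827 (SD, n = 5) and 3663 ± 969 (n = 4), a difference of -0.05 ± 0.29. Cdt1, its partner, was at 37649 ± 5074 and 40048 ± 4471, a difference of 0.09 ± 0.12. Gins2, a subunit of the GINS complex that activates the helicase, had a difference of 0.05 ± 0.25, and its other probe set read -0.24. Pcna, the sliding clamp, read 66839, 47490, 25252, 52403 and 55476 in the wild type and 39849, 41726, 48611 and 49057 in the mutants, a difference of -0.11 ± 0.25. In these deposited signals wild-type array 3 was the lowest of the 9, wild-type arrays 1, 4 and 5 were the highest, and array 2 lay inside the mutant range. After quantile normalisation, wild-type arrays 1, 2, 4 and 5 all lay above the mutant arrays, and array 3 lay below them.

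Rfc4, a subunit of the clamp loader, read 13870, 11393, 11774, 9390 and 13493 in the wild type and 9873, 12960, 9178 and 8018 in the mutants. Its difference was -0.26 ± 0.20, and its other probe set read -0.55 ± 0.37 (adjusted p = 0.861 and 0.833, limma). At both, the groups overlapped.

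The nucleotide supply genes held the replication member with the lowest p. Ribonucleotide reductase makes deoxyribonucleotides, with Rrm1 as its large subunit and Rrm2 as the small subunit that rises in S phase. Rrm2 read 106253, 47487, 82231, 97810 and 76417 in the wild type and 48124, 69405, 71686 and 60271 in the mutants. The deposited signals overlapped through wild-type array 2, and after quantile normalisation each mutant array lay below each wild-type array. The difference was -0.35 ± 0.11 (adjusted p = 0.651, limma; two-sided exact permutation p = 0.0159, unadjusted), with a 95% interval of -0.58 to -0.11.

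A second Rrm2 probe set had a larger gap. It read 20364, 21187, 27811, 25736 and 32184 in the wild type and 15919, 11836, 17554 and 14901 in the mutants, without overlap in the deposited signals either. Its difference was -0.76 ± 0.19 (adjusted p = 0.485, limma). The third was at -0.18 ± 0.43, with signals of 1726 to 7077 on wild-type arrays and 2305 to 5071.5 on mutant arrays. All 3 Rrm2 probe sets thus had values below 0, and none passed the test.

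Rrm1 read 21375, 21570, 11388, 20732 and 21855 in the wild type and 16266, 14233, 14197 and 16408 in the mutants, a difference of -0.30 ± 0.23 (adjusted p = 0.857, limma). Apart from wild-type array 3, each wild-type array lay above each mutant array. Its second tested probe set was dim and read 0.11. Tyms, thymidylate synthase, was dim and scattered, at 587 ± 353 and 794 ± 877, and its interval of -1.85 to 1.88 spans both directions. Its other tested probe set read -1.09 ± 0.84.

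Cyclin E genes showed why the probe set matters. At the representing probe set, Ccne1 read 15041, 11796, 15785, 13993 and 14959 in the wild type and 15634, 26855, 18317 and 16742 in the mutants. The groups met only where mutant array 1 fell just below wild-type array 3, and on the normalised scale they did not overlap. The difference was 0.41 ± 0.18 (adjusted p = 0.746, limma). Its two-sided exact permutation p of 0.00794, unadjusted, is the smallest the splits of 9 arrays can give, and a small value follows from the lack of overlap. At its other probe set Ccne1 read 7869, 6685, 7329, 6553 and 7495 in the wild type and 4539, 4999, 3545 and 4262 in the mutants. There the mutant arrays were all lower, with a difference of -0.72 ± 0.22 (adjusted p = 0.647, limma). The 2 probe sets of 1 gene therefore separated the groups in opposite directions, and neither passed after adjustment. Ccne2, the second cyclin E gene, was dim, at 328 ± 191 and 284 ± 27.6.

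**Figure D2:**
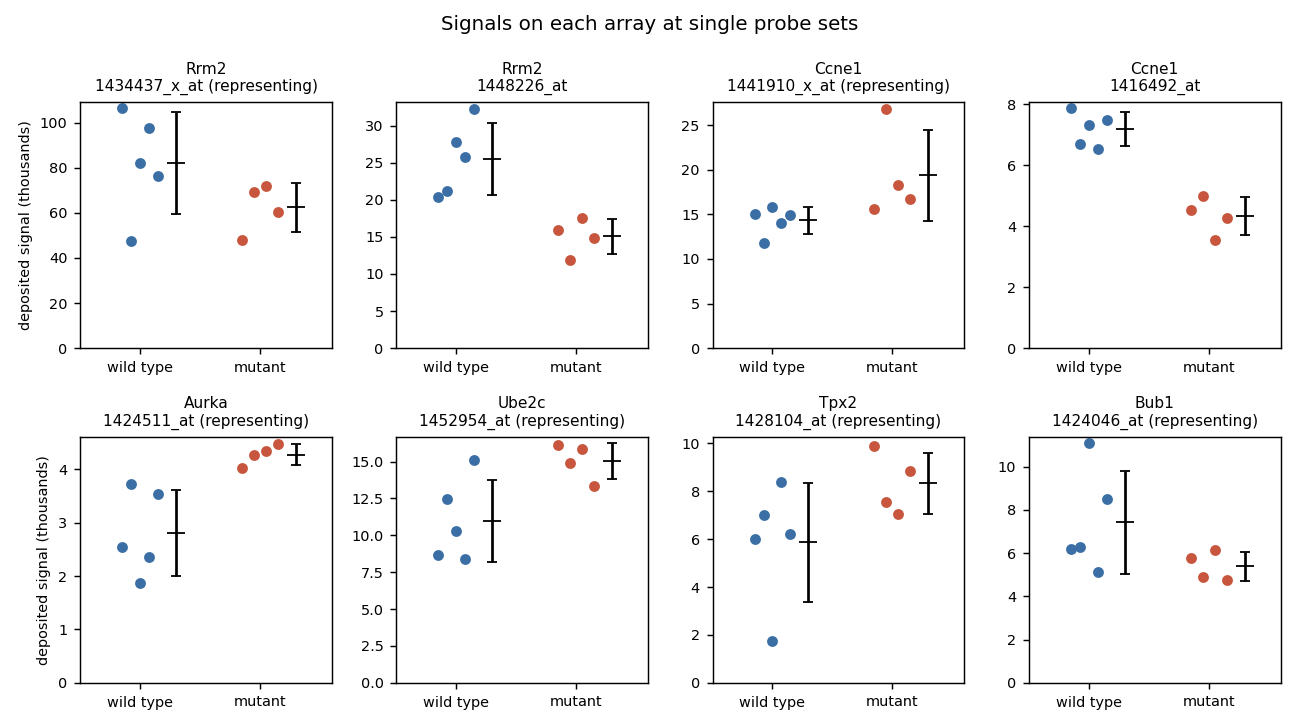
Deposited signal (y axes from 0) on each wild-type (blue) and mutant (red) array at 8 probe sets, with the mean and SD as black bars. Both Rrm2 probe sets tend lower in the mutants, the 2 Ccne1 probe sets go opposite ways, and Aurka has all 4 mutant arrays above the 5 wild-type arrays.

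Mitotic cyclins and their kinases overlapped between the groups. Ccna2, Ccnb2, Cdk1 and Plk1 had differences of 0.02 ± 0.31, 0.03 ± 0.42, 0.18 ± 0.21 and 0.00 ± 0.26 (adjusted p of at least 0.914, limma). Ccnb2, a B-type cyclin, varied within both groups, from 4526 to 15191 on wild-type arrays and from 6163 to 17879.6 on mutant arrays. Plk1, the Polo kinase, was steady, at 4469 ± 863 and 4375 ± 345.

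Aurka, the Aurora kinase of the spindle poles, was the mitotic member whose groups did not overlap. It read 2537, 3734, 1869, 2364 and 3546 in the wild type and 4019, 4263, 4339 and 4484 in the mutants. Every mutant array stood above every wild-type array, and the mutant signals lay close together. The difference was 0.66 ± 0.29 (adjusted p = 0.748, limma), and the two-sided exact permutation p was 0.0238, unadjusted for the 33 members. Its other probe set read 0.11 ± 1.13 and was dim on 6 of the 9 arrays, with signals of 25.7 to 98.7.

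Groups without overlap on the normalised scale occurred at 3 of the 33 members, Aurka and Ccne1 higher and Rrm2 lower in the mutants, or 9.09%. Over all probe sets tested this share was 2.25%, made of 1.37% higher and 0.884% lower. Over all genes tested, each at its brightest probe set, it was 2.77%. The count changed with the scaling, to 1 (Aurka) on the deposited scale and to 0 with median centring. Exact permutation p values are given for these 3 members only. Groups without overlap are the most extreme split in their direction, so these p values restate the lack of overlap and add no support.

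The chromosomal passenger complex, which corrects faulty attachments and sets the site of cytokinesis, gave mixed values. Aurkb, its kinase, was at 5701 ± 1532 and 7413 ± 927 (difference 0.45 ± 0.26, adjusted p = 0.803), and its second probe set read 0.53. Birc5, survivin, had a difference of 0.32 ± 0.31. Cdca8, borealin, read 81805, 44568, 81227, 74458 and 59311 in the wild type and 52175, 63256, 77062 and 59244 in the mutants, a difference of -0.07 ± 0.11 with overlap throughout.

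Spindle checkpoint and kinetochore genes also spread on both sides of 0. Bub1, a checkpoint kinase, read 6177, 6299, 11076, 5114 and 8510 in the wild type and 5795, 4880, 6136 and 4738 in the mutants, the lowest difference among mitotic members at -0.39 ± 0.27 (adjusted p = 0.84). In the deposited signals wild-type arrays 3 and 5 were its highest, arrays 1 and 2 lay just above the mutants, and array 4 fell inside the mutant range. After quantile normalisation, wild-type arrays 1, 2 and 4 all fell inside that range. Its dimmer probe set read 1.32 ± 0.98. Bub1b, which encodes the checkpoint protein BubR1, was at 0.42 ± 0.23, the kinetochore motor Cenpe at 0.40 ± 0.28 and the kinetochore protein Cenpf at 0.24 ± 0.25, though the 2 dimmer Cenpf probe sets read -0.49 and -1.17.

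The anaphase promoting complex is switched on by Cdc20 and works with the ubiquitin-conjugating enzyme Ube2c. Ube2c read 8681, 12427, 10261, 8420 and 15077 in the wild type and 16096, 14926, 15821 and 13356 in the mutants. Wild-type array 5 lay inside the mutant range and the other 4 below it, with a difference of 0.49 ± 0.21 (adjusted p = 0.737, limma). Cdc20 was at 53441 ± 10196 and 54262 ± 11540.4, a difference of 0.02 ± 0.11, and its other probe sets read -0.02 and -0.23.

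Among the spindle and chromosome genes, Tpx2, the activator of Aurora A on microtubules, had the largest difference of all members, 0.70 ± 0.42 (adjusted p = 0.807, limma). It read 6002, 7011, 1728, 8368 and 6224 in the wild type and 9873, 7555, 7068 and 8823 in the mutants. Wild-type array 3 was far below the other arrays, and wild-type array 4 stood among the mutants. The other 3 Tpx2 probe sets read 0.49, 0.09 and 0.13.

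The standard markers of cycling cells overlapped between the groups. Mki67, the Ki-67 antigen, read 48367, 39086, 24796, 54883 and 39934 in the wild type and 33565, 45413, 53720 and 30184 in the mutants, a difference of -0.04 ± 0.22 with an interval of -0.53 to 0.45. Top2a, the topoisomerase that untangles sister chromatids, read 31427, 28128, 23350, 33848 and 39391 in the wild type and 28512, 38741, 37602 and 28241 in the mutants, a difference of 0.08 ± 0.16 with an interval of -0.28 to 0.43. For both genes wild-type array 3 was the lowest of the 9. A dimmer Top2a probe set read -1.58 ± 0.92.

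Wild-type array 3 was low across most mitotic members and low for fewer of the replication members. It had the lowest value of the 9 arrays for 9 of 17 mitotic genes and lay above the gene's own mean for 2 of them. For replication genes it lay above the mean for 8 of 16 and was lowest for 5. The level of a class on an array, the median over its genes of the deviation from the gene's mean, was -0.46 for the mitotic class on that array. On the other wild-type arrays it was -0.03, 0.05, -0.02 and 0.10 for arrays 1, 2, 4 and 5, and on mutant arrays 1 to 4 it was 0.13, 0.13, 0.08 and 0.08. The replication level was -0.00, 0.14, -0.02, -0.02 and 0.07 on the wild-type arrays and -0.10, 0.01, 0.03 and 0.08 on the mutant arrays. Both groups thus covered about the same range. Over the lists of other replication genes and other mitotic genes, the levels on wild-type array 3 were -0.25 and -0.23. Each was the lowest of the 9 arrays, so a low level there was not particular to mitotic genes.

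Replication level minus mitotic level was 0.03, 0.09, 0.44, -0.00 and -0.03 on wild-type arrays 1 to 5 and -0.23, -0.12, -0.05 and -0.00 on mutant arrays 1 to 4. The group means were 0.10 ± 0.19 (SD, n = 5) and -0.10 ± 0.10 (n = 4), a mutant minus wild-type gap of -0.21. Wild-type array 5 fell within the mutant range, and array 4 lay just above it. On these same values, the wild-type mean without array 3 was 0.02 ± 0.05 (SD, n = 4), nearer to the mutant mean of -0.10. With array 3 left out and the other arrays normalised anew, the gap was -0.17. Probe sets of the x and s types can share probes with other transcripts, and with these left out the gap was -0.37. Both classes were chosen by their names and this gap was given no test.

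**Figure D3:**
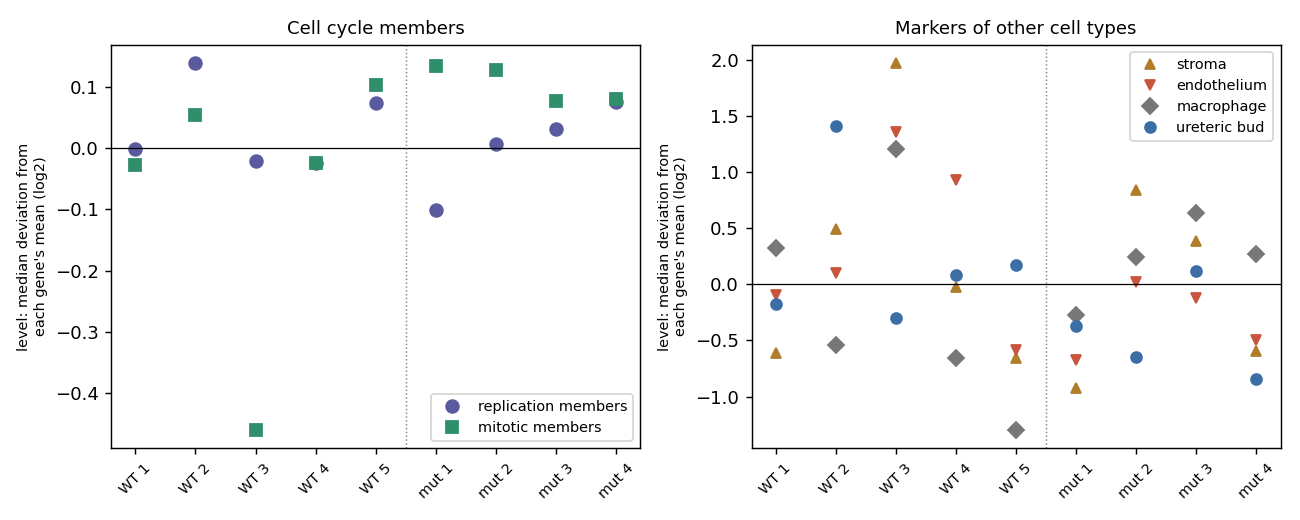
Level per array (median deviation from each gene's mean, log2) of the replication and mitotic members (left) and of marker lists of 4 other cell types (right), with wild-type arrays 1 to 5 left of the dotted line and mutant arrays 1 to 4 right of it. The mitotic level of wild-type array 3 is -0.46, and that array has the highest stroma, endothelium and macrophage levels.

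The same array had the highest summed signal of the stroma, endothelial, macrophage and erythroid markers. The stroma markers, 15 of 15 tested, summed to 222773 on it against 35989 to 79270 on the other wild-type arrays and 41189.6 to 90279.5 on the mutants, and 10 of them were highest there. The endothelial markers, 13 of 15 tested, summed to 31459 there and to 5804 to 19009 on the other wild-type arrays and 6155 to 7922 on the mutants, and 8 were highest there. The macrophage markers, 11 of 13 tested, summed to 27049, against 1430 to 4333 and 3707 to 6613, and 5 were highest there. Csf1r alone read 16543 of that sum. The erythroid markers, 8 of 11 tested, summed to 157005 there, against 134539 on wild-type array 1 and up to 120664 on the mutants, and 2 were highest there. The part of these cells in the low mitotic level was not tested.

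Between the groups, ureteric bud markers were lower in the mutants at 12 of 13 genes tested, with sums of 22235 to 89146 on wild-type arrays and 10279.8 to 22075 on mutant arrays, and all 13 endothelial markers had differences below 0. None of these genes passed the test (adjusted p of at least 0.387, limma). Their part in the values of the cycle genes was not tested.

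**Figure D4:**
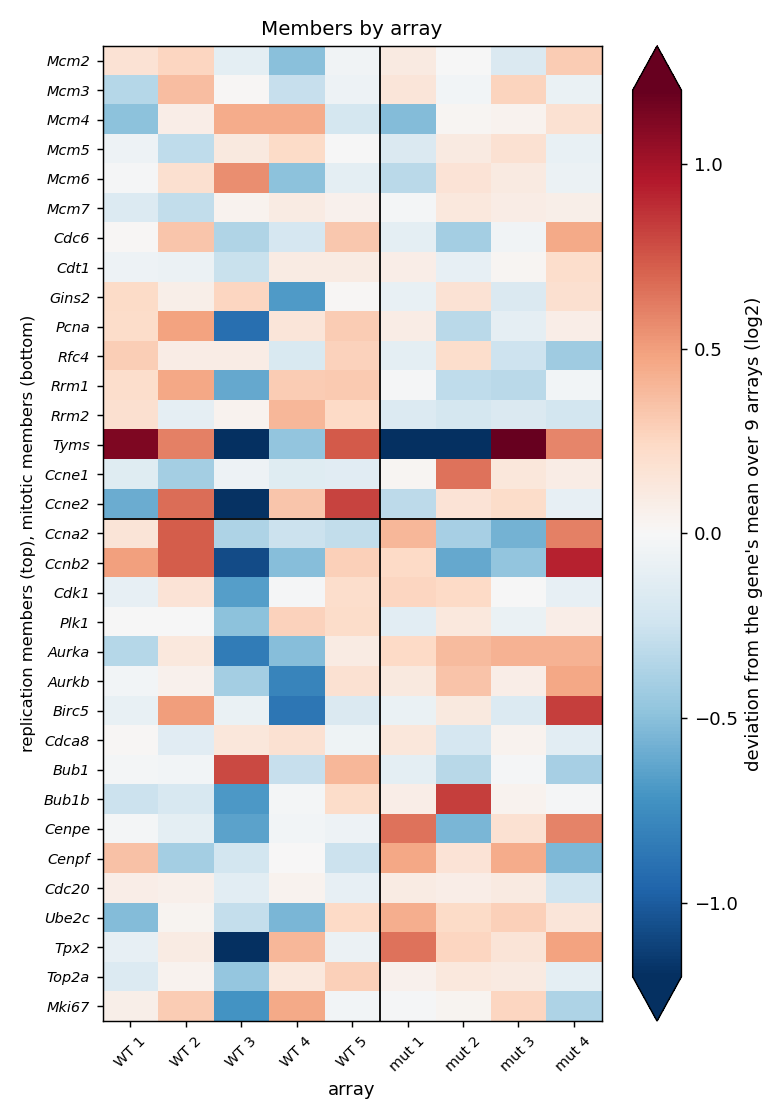
Deviation of each member from its own mean over the 9 arrays (log2, colour; values past 1.2 either way share the end colours), replication genes above the line and mitotic genes below, wild-type arrays left and mutant arrays right. The column of wild-type array 3 is blue for 15 of the 17 mitotic genes. The MCM rows run from -0.52 (Mcm4, mutant array 1) to 0.55 (Mcm6, wild-type array 3).

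Spread within the groups was small for the members and larger in the wild type. The median SD (log2) over replication genes was 0.30 among wild-type arrays and 0.20 among mutant arrays, and over mitotic genes 0.35 and 0.18. Over all genes tested, not matched to the members in signal, these medians were 0.65 and 0.52. Without wild-type array 3, the wild-type medians of the 2 classes were 0.24 and 0.23.

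Different probe sets of a member often disagreed in sign. Of 24 members with over 1 tested probe set, 12 had differences on both sides of 0, among them Ccne1, Mcm2, Bub1 and Cenpf. The x and s types represented 10 of 16 replication genes and 4 of 17 mitotic genes. With these probe sets left out, the replication genes had 6 differences above 0 and 10 below with a median of -0.08, and the mitotic genes 12 above and 4 below with a median of 0.13. Rrm2 and Ccne1 then both stood lower in the mutants without overlap.

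Other genes of the cycle, from lists of related function, held no gene past the threshold. Of 32 other replication genes tested, 14 were above 0 and 18 below, with a median of -0.03. An unadjusted p under 0.05 (limma) was found for 2, or 6.25%, against 7.73% over all genes tested. These were Pole2, a subunit of DNA polymerase epsilon, at 10788 ± 939 and 5963 ± 3955 (difference -1.01 ± 0.34, adjusted p = 0.683), and Dut, which keeps uracil out of DNA, at -0.45 ± 0.16 (adjusted p = 0.696). Pole2 read 4632, 3764 and 3601 on mutant arrays 1 to 3 and 11857 on mutant array 4, above the wild-type range. Pold2 and Pole, subunits of DNA polymerases delta and epsilon, had differences of 0.71 ± 0.33 and 0.64 ± 0.52.

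Of 34 other mitotic genes tested, 17 were above 0 and 17 below, with a median of 0.02. The 4 with an unadjusted p under 0.05 (limma) were all higher in the mutants. They made 11.8%, against 7.73% over all genes tested. Over all probe sets, 3.8% were higher and 2.87% lower at that p. Hmmr, a spindle assembly factor, read 11466, 6758, 9693, 7124 and 16904 in the wild type and 20504, 24697, 17142 and 16299 in the mutants. Only wild-type array 5 reached into the mutant range, and the difference was 1.01 ± 0.28 (adjusted p = 0.586, limma). Ccnf, cyclin F, was at 0.87 ± 0.36, and the other 2, Ect2 and Incenp, at 1.05 ± 0.46 and 0.37 ± 0.17. On the lower side stood Mad2l1, a checkpoint protein, at -0.43 ± 0.23 and Spc24, a kinetochore protein, at -0.53 ± 0.30.

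G1 genes had 2 values above 0 and 4 below among 6 tested. Cdk2, the partner of cyclin E, read 5857, 7091, 10059, 6212 and 8951 in the wild type and 5787, 5110, 5115 and 1954 in the mutants. Its groups did not overlap, by a narrow margin between mutant array 1 and wild-type array 1, and the difference was -0.83 ± 0.35 (adjusted p = 0.735, limma). It was the 1 gene of the 6 without overlap, or 16.7%, against 2.77% over all genes tested. Cdk6, a partner of cyclin D, was at 1704 ± 1259 and 461 ± 584 (-2.07 ± 0.84), and its groups overlapped. Cdk4 and Ccnd3 were at 0.17 ± 0.13 and 0.41 ± 0.39.

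Of 7 CDK inhibitor genes, 5 passed the filter, 3 above 0 and 2 below. Cdkn1c, p57, was at 15099 ± 4756 and 14146.5 ± 2476 (-0.06 ± 0.26), Cdkn2d at -0.30 ± 0.45, Cdkn1a, p21, at 0.79 ± 0.54 and Cdkn1b, p27, at 0.65 ± 0.42. Among 19 pocket proteins, E2F factors and other transcription factors of the cycle, 13 were above 0 and 6 below. Foxm1, a factor for mitotic genes, was the 1 of these without overlap, or 5.26%, against 2.77% over all genes tested. It read 1392, 939, 1148, 555 and 1009 in the wild type and 2154, 2592, 1477 and 1545 in the mutants, a difference of 0.96 ± 0.42 (adjusted p = 0.737, limma). E2f5 was at 0.47 ± 0.32, Tfdp1 at -0.24 ± 0.22 and E2f3 at -0.20 ± 0.26.

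Checkpoint kinases and phosphatases had 6 values above 0 and 3 below. Cdc25a, the phosphatase that frees Cdk2, was at 4813 ± 1449 and 2663 ± 810 (-0.84 ± 0.33, adjusted p = 0.722, limma), and Atr, the kinase of stalled forks, at -0.72 ± 0.38. Chek1, the kinase that Atr acts on, was at 0.51 ± 0.31 and Cdc25b at 0.68 ± 0.66.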

How the data were processed

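Per the labels, total RNA of captured vesicles went through 2 amplification rounds and carried a biotin label. The authors deposited 1 linear intensity per probe set and array, made with GCOS per the submitters' processing notes, and its mean without the lowest and highest 2% was 1500 on each array. No genome build or detection call is given in the sources used here. Intensities were transformed as log2(value + 42.4), the pseudocount being their 25th percentile, which understates changes of dim probe sets. Array log2 medians differed by 0.349, over the tolerance of 0.1, so arrays were quantile normalised. Of 45037 probe sets other than 64 controls, those at or above the 40th percentile of the mean were tested with limma 3.58.1 in R 4.3.3 (lmFit, eBayes with trend, group as the only term, two-sided), adjusted over 27022. Signals are as deposited, differences are log2 with SE, and adjusted p values are limma's. The fit was tested on simulated data. The number of arrays limits precision.

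Members, lists and rules were chosen with earlier results of these data known. Values on every array are given for members with an unadjusted p under 0.05 or no overlap, the 3 largest differences per class and direction, and Mki67, Top2a, Mcm2, Pcna and Ccne1; other probe sets of a named member where their sign differs. Of the related lists, genes without overlap and the 2 lowest p per direction are named. Ect2 and Incenp, members with other values and the Pole2 arrays were chosen after their values were seen. Marker lists covered renal vesicle, ureteric bud, cap mesenchyme, stroma, endothelium, erythroid cells and macrophages. Medians of the difference over the cap mesenchyme and erythroid lists were -0.13 and -0.47.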

Additional observations from a re-analysis of the deposited data

Results flagged for a closer look

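Dixon's test, run on 72 sets of 4 or 5 arrays, marked 1 array as distant in 7 of them. Chance alone marks about 1 set in 20 where values are normally distributed, or 3.6 here. Wild-type array 3 accounted for 4 of the 7. These 4 were not independent, since Cenpe is a mitotic member and the last level below is computed from the mitotic level. It read 11388 for Rrm1, against 20732 to 21855 on the other wild-type arrays, and 5953 for Cenpe, against 8752 to 9366. Its mitotic level was -0.46, against -0.03 to 0.10, and last, its replication minus mitotic level was 0.44, against -0.03 to 0.09. Wild-type array 2 read 17556 for Mcm5, against 23698 to 25891. Wild-type array 4 read 4705 for Gins2, against 8014 to 9177. Mutant array 2 read 34574 for Bub1b, against 17094 to 18884 on the other mutants.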

How the results depend on the processing

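No member passed in any of 20 alternative fits at the same probe sets (lowest adjusted p 0.453, limma), and 17 of the 33 kept their sign in each. Of these 17, Ccne1 turned to -0.72 without x and s probe sets, and signs with averaged probe sets were not counted. The count of probe sets called over the whole array was 9, 3 to 8 with each array left out in turn (3 without wild-type array 2 or 4 or mutant array 3 or 4, 4 without wild-type array 5 or mutant array 2, 5 without mutant array 1), and 0 without wild-type arrays 1 and 3 (2001 at an unadjusted p under 0.05, limma). The members without overlap numbered 3 to 6 with each array left out, 5 without wild-type array 3 (Pcna and Rrm1 added) and 6 without wild-type array 5 (Aurkb, Bub1b and Ube2c added), where 5.16% and 4.36% of all genes did not overlap, against 2.77% with 9 arrays. They numbered 6 without wild-type arrays 1 and 3 (9.31% of all genes), 1 without quantile normalisation (2.93%), 0 with median centring (2.31%) and 1 with probe sets averaged per gene. The median of the replication genes was -0.0683 to 0.0781 with each array left out, -0.0782 with median centring, -0.0807 without wild-type arrays 1 and 3, -0.0956 with averaged probe sets and -0.0813 without x and s probe sets, an alternative chosen after seeing the data. That of the mitotic genes was 0.0350 to 0.22 with each array left out, 0.0852 with median centring, 0.0715 with array weights and 0.00931 without wild-type arrays 1 and 3. The replication minus mitotic gap was -0.25 to -0.14 with each array left out and -0.37 without x and s probe sets. The cause of these moves was not tested. With the replicate number as a block (replicate block, 8 arrays), limma called 0 probe sets (1761 had an unadjusted p under 0.05) and 6 members did not overlap. The same 8 arrays without the block, added after seeing the data, gave 4 and 6. Same-numbered arrays correlated at -0.11 to 0.05, and 2 of 8 arrays correlated best with their own number, so the numbers were not taken as pairs.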
